A study of Mus musculus with 10 samples.

Results

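*Pparg*, which encodes the nuclear receptor PPAR gamma, and 9 genes of adipocyte lipid storage were followed in RNA-seq of the mouse uterus. The 9 genes were *Adipoq*, *Fabp4*, *Plin1*, *Plin4*, *Cidec*, *Cidea*, *Lpl*, *Cd36* and *Apobr*. These 10 of the 29268 genes in the table were picked by name with their levels in these mice already known, so their differences between genotypes are given as a description. Where members called by the test over all genes are counted, nothing is read from the count. The question behind the choice was whether *Pparg* was higher together with RNA of fat attached to the uterus or apart from it. The series compared the uterus of 5 HSD17B1TG females with that of 5 wild-type (WT) females, all at the age of 4 months. HSD17B1TG mice are FVB/N mice that carry the human *HSD17B1* cDNA behind the chicken beta actin promoter with a CMV enhancer, which is active throughout the body, and the line is kept heterozygous. The enzyme turns estrone into the stronger estrogen estradiol. The estrous cycle is absent in this line and its phase was not matched among the WT females, so genotype and cycle phase cannot be told apart. Whether fat around the uterus was trimmed is not given in the sources used here.

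Levels are given as FPKM, fragments counted per kilobase of gene and scaled to the size of the library, so levels of different genes are compared per length. Mice are named TG1 to TG5 (HSD17B1TG) and WT1 to WT5. The libraries held 14817228 to 23271988 reads counted on genes. The human transgene has no row among the mouse genes, so the genotype of a mouse was not checked in its RNA. In whole tissue, fewer cells of a type and less RNA per cell cannot be told apart. A gene was called when the adjusted p of edgeR's quasi-likelihood test was under 0.05, the fold change over 2 and the mean FPKM over 1 in either genotype. By this rule 367 of 16993 genes tested (2.16%) were called up in HSD17B1TG and 354 (2.08%) down. Every HSD17B1TG mouse lay above every WT mouse in 687 genes (4.04%) and below every WT mouse in 450 (2.65%). The median log2 fold change over all genes tested was 0.0021.

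PPAR gamma binds DNA as a partner of retinoid X receptors and is known as the main regulator of fat cell formation, where it turns on genes for taking up fatty acids and packing them into lipid droplets. Outside fat it is also made in macrophages and in some epithelia, among them the urothelium. Adiponectin, perilipin 1 and CIDEC mark fat cells closely, while lipoprotein lipase, CD36 and FABP4 are also found in other cells, CD36 and FABP4 for example in the endothelium of small vessels and in macrophages. CIDEA is a lipid droplet protein of brown fat that is also made in lipid-secreting epithelia such as the mammary gland.

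*Pparg* is read from more than 1 start, and RefSeq lists 3 of them on chromosome 6. The upstream starts make the transcripts of PPAR gamma 1, which many tissues use, and the start farthest downstream makes those of PPAR gamma 2, which is known from fat cells. The table has 1 row for the gene (ENSMUSG00000000440, chr6:115360951-115490399, plus strand), so the starts were counted together and the data do not show which was used. Sequences upstream of these starts are shown beside those of *Adipoq* and *Plin1*, whose levels went with fat markers, so that the receptor and its fat-restricted targets can be compared. The 250 bases before each start were taken from RefSeq (GRCm38.p6), and bases that lie in an exon of GENCODE M21 were left out. Of the 10 members, 7 matched an entry. Capitals mark the letters TTGCNNAA, a form of the site of C/EBP factors, on either strand.
Pparg, the start farthest upstream (chr6:115360894-115360950, plus strand): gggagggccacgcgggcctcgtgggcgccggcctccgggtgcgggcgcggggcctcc
Pparg, the start farthest downstream (chr6:115421816-115422065, plus strand): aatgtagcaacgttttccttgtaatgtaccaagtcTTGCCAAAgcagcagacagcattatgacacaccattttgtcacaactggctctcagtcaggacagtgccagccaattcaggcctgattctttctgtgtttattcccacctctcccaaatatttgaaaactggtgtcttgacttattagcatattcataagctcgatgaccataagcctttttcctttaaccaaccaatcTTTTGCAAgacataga
Adipoq (chr16:23146286-23146535, plus strand): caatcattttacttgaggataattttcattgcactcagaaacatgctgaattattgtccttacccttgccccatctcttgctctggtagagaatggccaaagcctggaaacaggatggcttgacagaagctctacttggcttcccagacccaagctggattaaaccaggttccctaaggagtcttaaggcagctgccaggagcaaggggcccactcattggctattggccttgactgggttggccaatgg
Plin1 (chr7:79732904-79733026, minus strand): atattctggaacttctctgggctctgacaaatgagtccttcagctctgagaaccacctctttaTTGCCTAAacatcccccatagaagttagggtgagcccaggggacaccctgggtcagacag

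The windows differed in composition. Of the 250 bases before the most upstream *Pparg* start 82.4% were G or C, with 38 CpG dinucleotides, against 40.8% and 2 CpG before the most downstream start and 48.8% and 0 before *Adipoq*. TTGCNNAA stood 2 times before the downstream *Pparg* start and 2 times before *Plin1*, of which 1 lies in the stretch printed, and 1 time before the second *Cidec* start. It was found in 9.564% of the 32851 promoter windows of the same length. The letters AGGTCA, the core that PPAR gamma and other nuclear receptors bind, stood 28 bases before the first and 9 bases before the second *Pparg* start and in the *Cd36* window, and in 14.024% of all windows. The full repeat AGGTCANAGGTCA, the textbook PPAR element, was in none of the windows of the 7 members with an entry and in 0.033% of all windows. Both strands were searched, and AGGTCA is itself part of the repeat. A match is a description of letters only.

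*Pparg* was higher in every HSD17B1TG mouse than in every WT mouse. It stood at 3.12, 2.86, 2.84, 3.72 and 3.26 FPKM in TG1 to TG5 and at 0.634, 0.624, 0.315, 0.787 and 0.364 FPKM in WT1 to WT5. The groups did not overlap, and the highest and lowest HSD17B1TG mouse differed by 1.31-fold, which makes it the most even member within that genotype. The mean was 3.16 ± 0.358 FPKM (SD, n = 5) in HSD17B1TG and 0.545 ± 0.199 FPKM in WT, which is 2.53 on the log2 scale (standard error, SE, 0.29). The counts behind these values were 147 to 177 reads per HSD17B1TG mouse and 15 to 48 per WT mouse. An antisense gene, *Gm44079*, lies within the span of *Pparg* and shares 0 exon bases with it.

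*Adipoq* encodes adiponectin, the hormone that fat cells secrete, and its pattern was different. It was listed at 0.117, 1.33, 0, 13.7 and 0.140 FPKM in TG1 to TG5 and at 0, 3.09, 0, 1.33 and 0 FPKM in WT1 to WT5. TG4 stood far above the rest, WT2 came next, TG2 and WT4 were alike, and the other 6 mice were at or near 0, so the genotypes overlapped. In TG1, TG3 and TG5, where *Pparg* was 3.12, 2.84 and 3.26 FPKM, *Adipoq* was at or under the level of 3 counts, which is 0.0884 to 0.140 FPKM for this gene. In WT2, where *Adipoq* was 3.09 FPKM, *Pparg* was 0.624 FPKM. TG4 alone held 69.4% of the *Adipoq* signal summed over the 10 mice, and 20.1% of the *Pparg* signal.

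The lipid droplet genes split the same way. Perilipin 1 coats the droplet of fat cells, and *Plin1* was listed at 0, 0.284, 0, 2.52 and 0 FPKM in TG1 to TG5 and at 0.00875, 0.577, 0, 0.0208 and 0 FPKM in WT1 to WT5. CIDEC fuses droplets into the large droplet of white fat, and *Cidec* was listed at 0, 1.15, 0, 7.48 and 0 FPKM in TG1 to TG5 and at 0, 2.27, 0, 0.548 and 0 FPKM in WT1 to WT5. Both were highest in TG4, then in WT2 and then in TG2, and *Cidec* had no count in the 6 mice other than TG2, TG4, WT2 and WT4. *Adipoq*, *Plin1* and *Cidec* had enough counts in too few mice for the filter and were not tested between genotypes.

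*Cidea*, the relative of *Cidec* on chromosome 18, followed the genotype. It stood at 1.20, 2.07, 1.28, 1.07 and 3.86 FPKM in TG1 to TG5 and at 0.0699, 0.271, 0, 0.458 and 0.126 FPKM in WT1 to WT5. Every HSD17B1TG mouse was above every WT mouse, and TG4, the mouse with the most *Adipoq*, was the lowest of its genotype. The log2 fold change was 3.30 (SE 0.72), on 208 reads in all mice together, and it ranged from 1.22 on log2(FPKM + 1) to 4.83 without TG2, TG4, WT2 and WT4. WT1, WT3 and WT5 had 2, 0 and 3 reads, at or under the floor of 3 counts, so *Cidea* passed the filter through the HSD17B1TG mice. *Plin4*, a droplet coat protein of fat and muscle, was 10.1, 3.98, 1.56, 8.34 and 1.69 FPKM in TG1 to TG5 and 1.27, 1.39, 0.0859, 3.75 and 1.84 FPKM in WT1 to WT5. It was highest in TG1, a mouse with next to no *Adipoq*, and the genotypes overlapped (log2 fold change 1.62, SE 0.78). *Plin4* shares 17 exon bases with *Hdgfl2* on the opposite strand.

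**Figure D1:**
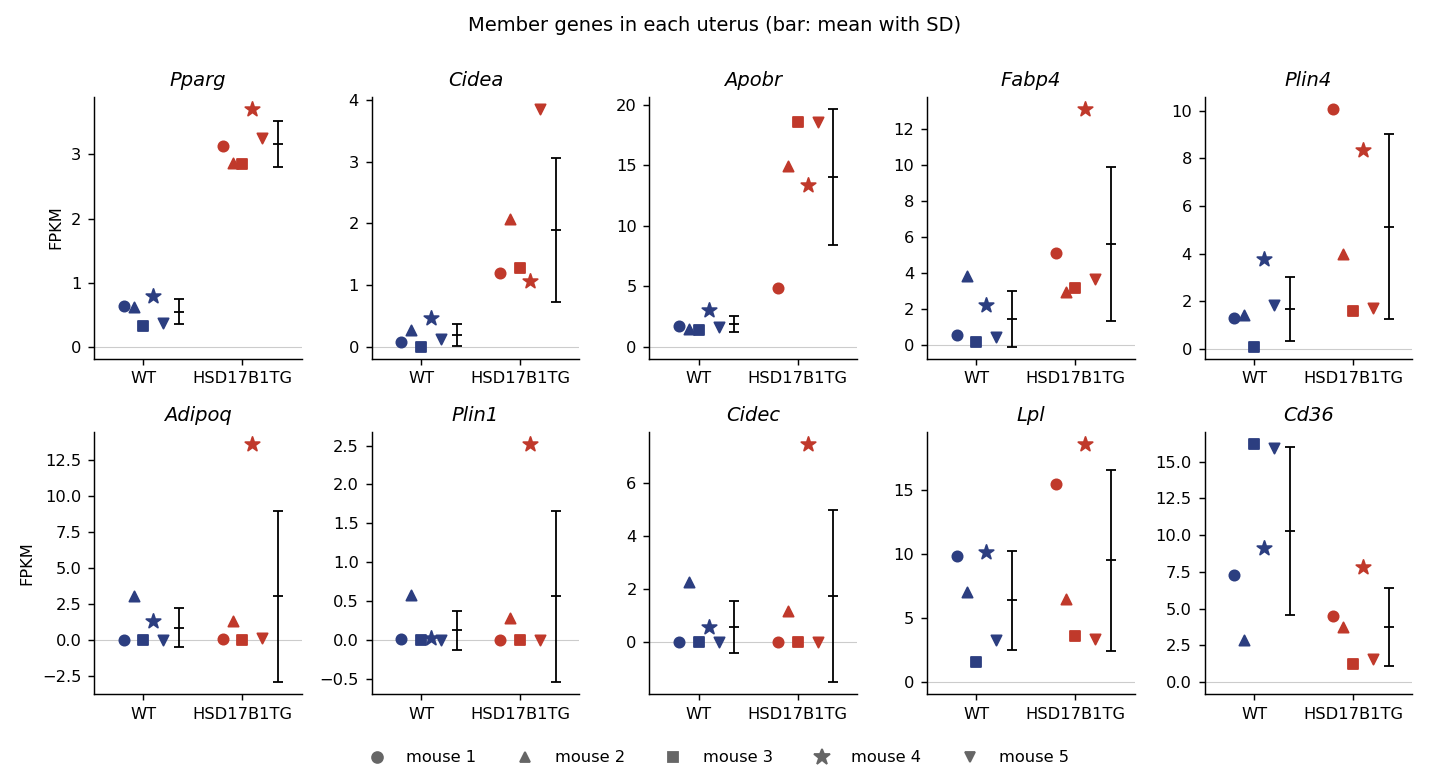
FPKM of each member gene (vertical axis, scaled per panel) in 5 WT (blue) and 5 HSD17B1TG (red) uteri. The symbol gives the mouse number within its genotype, and the black bar gives the mean with SD, which reaches below 0 where 1 mouse holds most of the signal. *Pparg*, *Cidea* and *Apobr* do not overlap between genotypes, while *Adipoq*, *Plin1* and *Cidec* stand out in TG4 (star) and WT2 (blue triangle).

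Among genes of fatty acid uptake and binding, *Apobr* had the pattern closest to a genotype split. It encodes the receptor for apolipoprotein B48, through which macrophages take up dietary lipoproteins. It stood at 4.86, 15.0, 18.6, 13.4 and 18.6 FPKM in TG1 to TG5 and at 1.74, 1.46, 1.36, 3.04 and 1.65 FPKM in WT1 to WT5, with TG1 the lowest HSD17B1TG mouse and WT4 the highest WT mouse. The log2 fold change was 2.92 (SE 0.37). *Apobr* (ENSMUSG00000042759, chr7:126584942-126589112, plus strand) shares 442 exon bases with *Cln3* and 103 with *Il27*, both on the opposite strand. The strand setting of the counting is not given in the sources used here, so reads of the shared bases cannot be told apart. *Cln3* itself stood at 5.00 to 11.7 FPKM in HSD17B1TG and 3.05 to 4.63 FPKM in WT and was called up (log2 fold change 1.09, adjusted p = 0.0283 in edgeR), while *Il27* was at most 0.759 FPKM in any mouse.

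*Fabp4* encodes the fatty acid binding protein of fat cells, endothelium and macrophages, and it shared features of both patterns. It was 5.11, 2.96, 3.18, 13.2 and 3.68 FPKM in TG1 to TG5 and 0.562, 3.80, 0.166, 2.23 and 0.446 FPKM in WT1 to WT5. TG4 was highest as for *Adipoq*, and WT2 and WT4 were the highest WT mice, but TG3 and TG5 stood above every WT mouse except WT2, and TG1 above all of them, with little or no *Adipoq*. The log2 fold change over all mice was 1.96 (SE 0.78). *Lpl*, the enzyme that frees fatty acids from lipoproteins at the vessel wall, was 15.4, 6.50, 3.56, 18.6 and 3.38 FPKM in TG1 to TG5 and 9.80, 7.01, 1.57, 10.1 and 3.31 FPKM in WT1 to WT5 (log2 fold change 0.58, SE 0.60), and the genotypes overlapped. The *Lpl* value was 0.18 without TG4, 0.33 without TG1 and 0.30 without WT3, and 0.12 with a score of adipocyte markers as a term.

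*Cd36*, a fatty acid transporter and scavenger receptor, was the 1 member with a negative fold change. It was 4.47, 3.75, 1.20, 7.81 and 1.56 FPKM in TG1 to TG5 and 7.25, 2.89, 16.2, 9.13 and 15.9 FPKM in WT1 to WT5. WT3 and WT5, which had no *Adipoq* count, were highest, and WT2 was lower than 3 of the 5 HSD17B1TG mice, so the genotypes overlapped. The log2 fold change was -1.46 (SE 0.57).

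In all, 7 of the 10 members passed the filter on low counts and 3 of these, *Pparg*, *Cidea* and *Apobr*, met the rule for a call up, beside 2.16% of all genes tested. With 1 mouse left out, *Pparg* and *Apobr* met it in 10 of 10 fits and *Cidea* in 3 of 10, those without TG1, TG3 or WT4. DESeq2 called *Fabp4* as well, beside 921 genes up and 657 down of the 16993 tested. The same 3 did not overlap between genotypes, beside 4.04% of all genes tested that lay higher in every HSD17B1TG mouse. No member met the rule for a call down (2.08% of genes tested) or lay lower in every HSD17B1TG mouse (2.65%). Because the members were chosen with this contrast known, nothing is read from these shares. By level, the WT order of medians was *Cd36* (9.13 FPKM), *Lpl* (7.01), *Apobr* (1.65), *Plin4* (1.39), *Pparg* (0.624), *Fabp4* (0.562) and *Cidea* (0.126), with *Plin1*, *Adipoq* and *Cidec* at 0.00875 FPKM or 0. Between neighbours in that order, *Lpl* was above *Apobr* and *Fabp4* above *Cidea* in 5 of 5 mice, and the other neighbours were not in 1 order in every mouse. In HSD17B1TG *Apobr* came first (15.0 FPKM) and was above *Lpl* (6.50 FPKM), the next in order, in 3 of 5 mice, and *Fabp4* (3.68 FPKM) was above *Pparg* (3.12 FPKM) in 5 of 5.

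RNA of fat was followed with 15 adipocyte markers outside the members. Leptin (*Lep*) was listed at 0 in TG1, TG3, TG5, WT3 and WT5 and was highest in TG4 (1.41 FPKM) and WT2 (0.235 FPKM). Resistin (*Retn*) reached 6.24 FPKM in TG4, 1.43 in WT2 and 0.692 in TG2, and it was at most 0.337 FPKM in the other 7 mice. Adipsin (*Cfd*) reached 72.2 FPKM in TG4, 12.5 in WT2 and 12.2 in TG2, 1.21 in WT4 and at most 0.348 FPKM in the other 6 mice. These 3 markers, and *Car3* with 34.4 FPKM in TG4 and 8.71 in WT2, were high in the same mice as *Adipoq*, in both genotypes. *Adig*, a further marker, was 1.68 FPKM in TG4 and at most 0.603 FPKM elsewhere. Other markers of the list went with other mice. *Lgals12* was highest in TG3 (3.35 FPKM, against 0.805 in TG4), *Thrsp* in WT2 (31.2) and then TG5 (14.9), and *Slc2a4* (26.2) and *Adrb3* (0.699) in TG1. *Pck1* was 8.27 FPKM in TG4, 8.23 in TG5 and 8.09 in WT1. Over all 15 markers the summed level was 53.8 to 184 FPKM in HSD17B1TG and 20.8 to 65.3 FPKM in WT. TG1, TG3 and TG5, with little or no *Adipoq*, still summed to 53.8, 61.0 and 99.2 FPKM, so the sum is not fat RNA alone. In TG5 *Gpd1* was 37.1 and *Lipe* 31.4 FPKM. Of the 9 that passed the filter, 2 were called up and none down (median log2 fold change 1.27). The 2 called were *Lipe* (1.92, SE 0.37, adjusted p = 0.0234 in edgeR) and *Gpd1* (2.16, 0.52, 0.0413), and neither followed *Adipoq*, since both were highest in TG5. Hormone-sensitive lipase, the product of *Lipe*, also serves steroid-making cells, and *Gpd1* makes glycerol phosphate. The third by p, the glucose transporter gene *Slc2a4*, was not called (1.27, 0.62, 0.226).

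**Figure D2:**
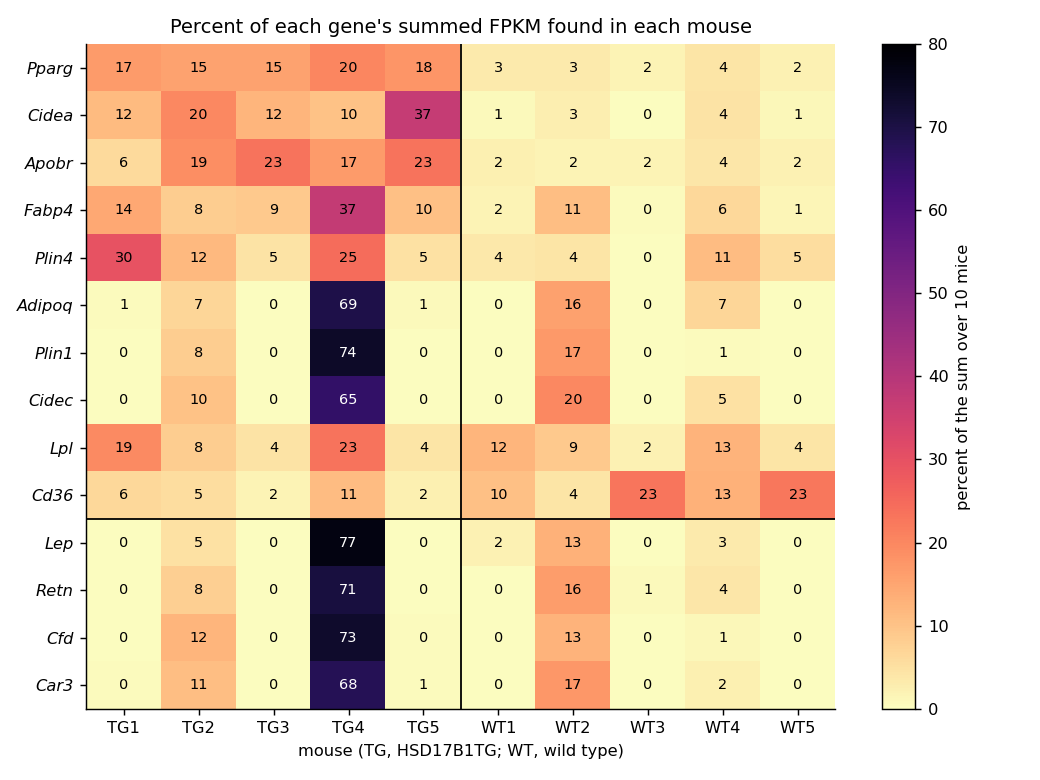
Percent of each gene's FPKM, summed over the 10 mice, that each mouse held (colour and number). Rows above the line are the members, rows below it 4 of the 15 fat markers, picked after their values were seen because they followed *Adipoq*, and columns are mice. *Adipoq*, *Plin1*, *Cidec* and these 4 have 65.4% to 77.2% of their signal in TG4, while *Pparg* is spread over the 5 HSD17B1TG mice with 15.3% to 20.1% in each.

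Whether members moved with fat marker RNA among mice of 1 genotype was tested with a score, the mean log2 CPM (counts scaled to the library's size) of the 15 markers, fitted beside the genotype. The score was 2.01 in TG4, 1.15 in TG2, 0.72 in WT2 and 0.11 in WT4, and below 0 in the other 6 mice. All 15 markers weigh alike in it, also those that did not follow *Adipoq*, such as the called genes *Lipe* and *Gpd1*. The score is thus not a measure of fat RNA alone. In the genes that passed the filter no gene had a positive slope with an adjusted p under 0.05 (0.00% of 16993 in edgeR, with 139 genes at an unadjusted p under 0.05, and 1 gene in limma-voom). *Fabp4* had the steepest slope of the 7 members tested, 1.13 log2 units per score unit (SE 0.29, unadjusted p = 0.00302 in edgeR). *Pparg* had a slope of 0.24 (0.15), *Cidea* of 0.33 (0.45) and *Apobr* of 0.11 (0.21). With each mouse left out in turn the *Cidea* slope moved from 0.08 (without WT3) to 1.01 (SE 0.55, without TG4), that of *Apobr* from -0.02 to 0.22 and that of *Fabp4* from 0.90 to 1.41. On a score of *Lep*, *Retn*, *Cfd*, *Adig* and *Lgals12* alone the slope was 0.12 (SE 0.09) for *Pparg* and 0.62 (0.17) for *Fabp4*. No gene had a positive slope past the threshold there in edgeR. On the score of all 15 markers with no filter on low counts, 7 of 29268 genes had a positive slope at an adjusted p under 0.05 (0.0239%), and 3 of them were members.

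Those 3 were *Plin1*, *Cidec* and *Adipoq*, fat cell genes picked with their levels in these mice known. The score holds *Lep*, *Retn*, *Cfd* and *Car3*, which were high in the same mice. The slopes of these 3 are therefore a description, and nothing is read from their number. Their slopes were 4.55 (SE 0.37, adjusted p = 0.00136 in edgeR) for *Plin1*, 4.77 (0.42, 0.00136) for *Cidec* and 3.56 (0.45, 0.0279) for *Adipoq*. The other 4 were *Cyp2e1* and the score's own genes *Cfd*, *Car3* and *Lep*. In the same fit the slope of *Pparg* was 0.24 (0.17). With each mouse left out in turn, *Plin1* and *Cidec* kept an adjusted p under 0.05 in all 10 fits (at most 0.0343, without TG4), and *Pparg* had slopes of 0.147 to 0.298. *Adipoq* kept its slope (3.39 to 3.95) but lost the call without TG2, TG3, TG4, TG5, WT2, WT3 or WT5, each left out alone (adjusted p of 0.0513 to 1).

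**Figure D3:**
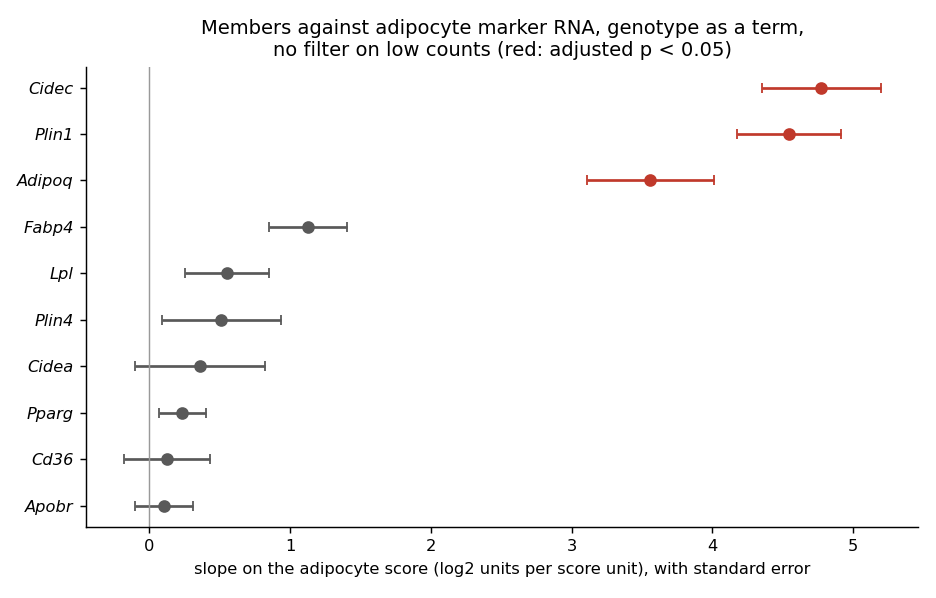
Slope of each member on the adipocyte score (horizontal axis, log2 units per score unit, bars give the standard error), from the fit over 29268 genes with genotype as a term. *Plin1*, *Cidec* and *Adipoq* (red, adjusted p under 0.05) lie between 3.56 and 4.77, *Fabp4* at 1.13 and *Pparg*, *Cidea* and *Apobr* between 0.11 and 0.36.

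TG2, TG4, WT2 and WT4, the mice with the most *Adipoq*, were left out after their values were seen. Low *Adipoq* and *Cidec* in the remaining mice follow from that choice and are not a result. The genotype split of *Pparg* was also known beforehand. Without TG4 and WT2 the *Pparg* mean was 3.02 ± 0.205 FPKM (SD, n = 4) in HSD17B1TG and 0.525 ± 0.224 FPKM in WT, and the log2 fold change was 2.49. *Adipoq* was then 0.397 ± 0.626 FPKM in HSD17B1TG and 0.333 ± 0.666 FPKM in WT. Without TG2, TG4, WT2 and WT4, *Adipoq* was at most 0.140 FPKM and *Cidec* had no count, while *Pparg* was 3.08 ± 0.214 FPKM (SD, n = 3) in HSD17B1TG and 0.437 ± 0.172 FPKM in WT (log2 fold change 2.79). In these 6 mice *Fabp4* was 3.18 to 5.11 FPKM in HSD17B1TG and 0.166 to 0.562 FPKM in WT, with a log2 fold change of 3.33 against 1.96 over all mice. The *Fabp4* value was 1.37 without TG4 alone, 2.70 without WT2 alone and 1.501 with the adipocyte score as a term. The *Pparg* log2 fold change without these mice, 2.49 and 2.79, stood beside 2.53 over all mice. Without TG4 and WT2 edgeR called 0 genes (1638 higher and 1451 lower at an unadjusted p under 0.05), limma-voom 0 and DESeq2 548 up and 450 down. Without all 4 of these mice edgeR called 0 (1508 and 1253), limma-voom 0 and DESeq2 648 up and 541 down. With the adipocyte score as a term in the fit over all mice, the *Pparg* log2 fold change was 2.35, edgeR called 7 genes and limma-voom 0.

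**Figure D4:**
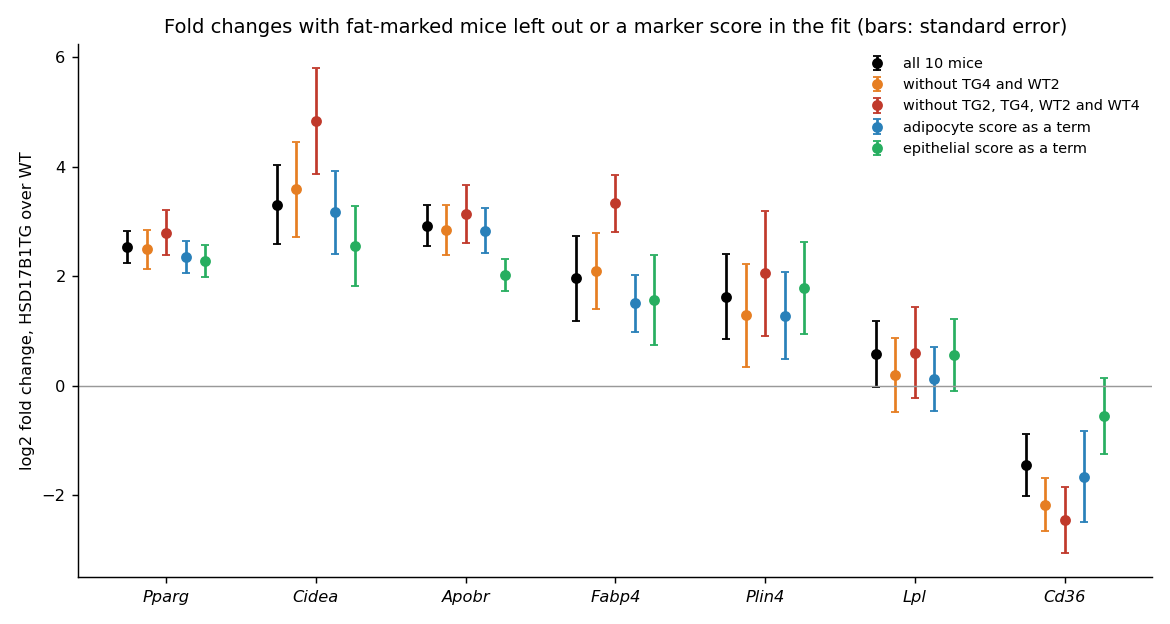
Log2 fold change of the 7 members tested, HSD17B1TG over WT (vertical axis, bars give the standard error), over all mice, with the mice rich in fat markers left out, and with a marker score as a term. *Pparg* stays between 2.27 and 2.79, *Apobr* moves from 2.92 to 2.02 with the epithelial score, and *Cd36* from -1.46 to -0.55 with it and to -2.46 without the 4 mice.

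Markers of other cell types were compared in the same mice. The 14 epithelial markers summed to 775 to 3612 FPKM in HSD17B1TG and 554 to 1843 FPKM in WT, 12 of 14 had a positive log2 fold change (median 1.22) and none was called. The 13 genes of urothelial and terminal epithelial differentiation summed to 276 to 890 FPKM and 30.7 to 320 FPKM (8 of 9 tested higher, median 1.63, none called). Of these sums *Elf3* alone held 238 to 795 FPKM in HSD17B1TG and 15.2 to 282 FPKM in WT. The genes of this list that were not tested stood under 1 FPKM in every mouse. The 12 stromal markers summed to 646 to 2383 FPKM and 1938 to 2837 FPKM, with *Pdgfra*, *Hoxa10*, *Hoxa11* and *Thy1* called down and none up (median -1.28). The median was -0.61 over the 15 endothelial markers and 0.13 over the 13 macrophage markers tested, with 1 macrophage marker called up (*Cd68*) and 1 down (*Mertk*). With the epithelial score as a term the *Pparg* log2 fold change was 2.27, that of *Cidea* 2.55 and that of *Apobr* 2.02, and no gene was called in edgeR (1393 higher and 1016 lower at an unadjusted p under 0.05, and 1 gene in limma-voom). The part of these cell types in the differences of the members was not tested beyond these fits.

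Slopes on 5 of these lists, beside genotype, were fitted after the data had been seen. *Pparg* had a slope of 0.28 (SE 0.18) on the epithelial score, 0.41 (0.19) on the urothelial score and 0.20 (0.61) on the macrophage score, and none passed edgeR's adjusted threshold. On the urothelial and macrophage scores 0 of 16993 genes passed it in edgeR (1179 and 523 at an unadjusted p under 0.05), so nothing is read from these slopes. *Apobr* had a slope of 0.72 (0.18, adjusted p = 0.0628 in edgeR) on the epithelial score, on which 1.53% of all genes had a positive slope past the threshold. Without TG1 that slope was 0.43 (adjusted p = 0.451 in edgeR), and without WT2 it was 0.78 and passed the threshold (0.0411). It had a slope of -0.95 (0.21, adjusted p = 0.0257 in edgeR) on the stromal score, where 4.62% of all genes had such a negative slope. The stromal call was lost without TG1 (slope -0.63, adjusted p = 0.179), TG3 (-0.93, 0.0570) or WT4 (-0.88, 0.0530). TG1 was the mouse with the lowest *Apobr* and the lowest epithelial sum of its genotype. *Cd36* had a slope of 1.35 (0.31, adjusted p = 0.0602 in edgeR) on the endothelial score, where 1.23% of all genes had a positive slope past the threshold. Without WT2 or without WT4 that slope passed it (adjusted p of 0.0476 and 0.0409). The endothelial sum was 57.3 to 219 FPKM in HSD17B1TG and 105 to 241 FPKM in WT.

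Partners and relatives of PPAR gamma were looked at next. Of 7 receptors and partners 6 passed the filter and none was called (median log2 fold change 0.20). The obligate partner gene *Rxra* was 16.1 to 21.2 FPKM in HSD17B1TG and 14.3 to 17.0 FPKM in WT (0.25, SE 0.12, adjusted p = 0.225 in edgeR). *Ppard*, the widely expressed relative, was 5.40 against 4.20 FPKM on average (0.36, 0.14, 0.138) and *Ppara*, the relative of liver and muscle, 0.137 against 0.299 FPKM (-1.12, 0.47, 0.161). The liver X receptor gene *Nr1h2* had the smallest p of the list (0.41, 0.13, 0.0773).

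Among 20 adipogenic regulators and PPAR gamma cofactors, 18 were tested, none was called up and 1 was called down (median -0.04). The gene called was *Ebf1*, a factor of early fat and B cell development, which was lower in HSD17B1TG (-1.96 on the log2 scale, SE 0.43, edgeR adjusted p = 0.0328). The coactivator gene *Ncoa1* passed the p threshold with a fold change under 2 (-0.52, 0.12, 0.0368), and *Klf15* did not pass it (-1.35, 0.39, 0.0618).

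Of 18 further lipid droplet and lipolysis genes, 14 were tested and 2 were called up, *Lipe* and *Pnpla2*, the gene of adipose triglyceride lipase (1.10, SE 0.23, adjusted p = 0.0277 in edgeR). The list's median was -0.06, and *Hilpda* was not called (-1.03, 0.32, 0.0767). Of 33 uptake, binding and lipoprotein genes, 24 were tested and 1 was called up (median 0.07). This was *Slc27a2*, a fatty acid transporter and very long chain acyl-CoA synthetase, which stood at 6.49, 22.2, 9.57, 8.74 and 22.9 FPKM in TG1 to TG5 and at 0.809 to 2.92 FPKM in WT (2.87, 0.44, 0.0177). *Fabp5*, the epidermal fatty acid binding protein gene, had a log2 fold change of 1.74 (0.51, 0.0638) and *Slc27a6* of -1.43 (0.46, 0.0811), and neither was called.

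All 23 genes of triglyceride and fatty acid synthesis were tested and 1 was called up (median 0.03). *Mogat1*, a monoacylglycerol acyltransferase gene, stood at 10.7, 30.8, 26.2, 50.7 and 81.5 FPKM in TG1 to TG5 and at 5.48, 6.79, 0.995, 8.30 and 0.219 FPKM in WT1 to WT5, with no overlap (3.20, SE 0.83, adjusted p = 0.0488 in edgeR). Its relative *Mogat2* (2.07, 0.59, 0.0606) and *Dgat1* (0.42, 0.12, 0.0607) were not called, and *Fasn*, fatty acid synthase, had a log2 fold change of 0.03. Of 22 PPAR targets in fatty acid oxidation 16 were tested and none was called (median -0.02), with *Acadm* (0.72, SE 0.20, edgeR adjusted p = 0.0561) and *Acadl* (-0.25, 0.14, 0.287) among the genes of smallest p. Each of these shares stands beside 2.16% called up and 2.08% called down over all genes tested.

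**Figure D5:**
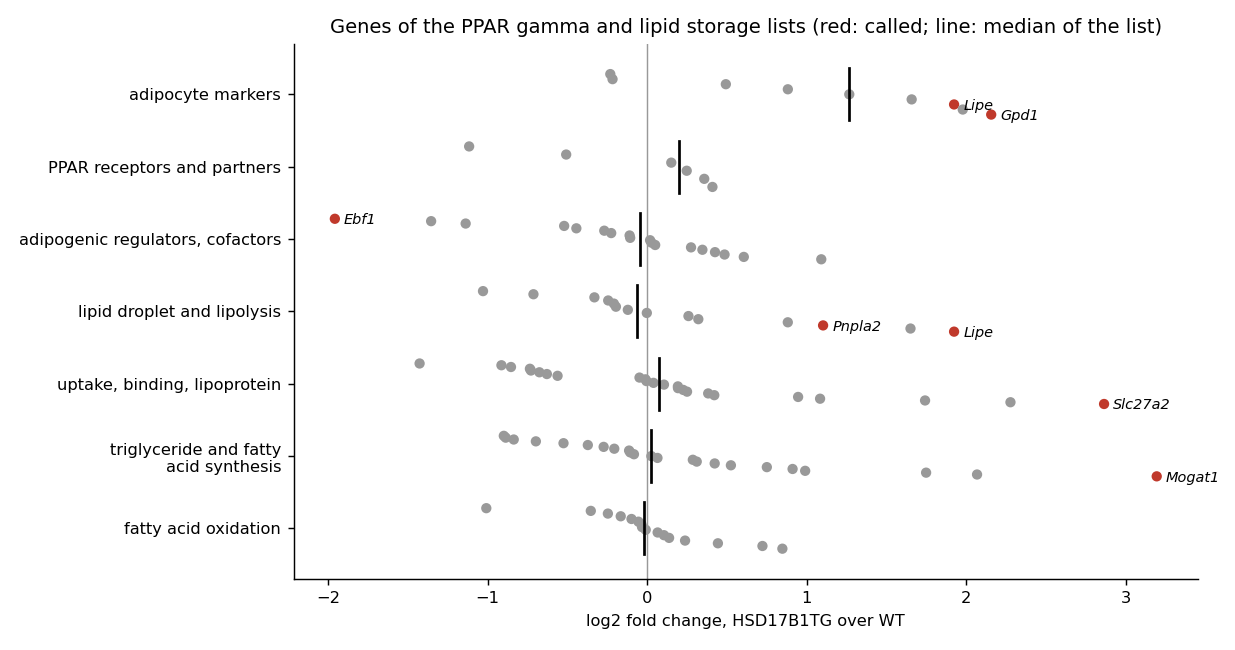
Log2 fold change (horizontal axis, HSD17B1TG over WT) of every gene tested in 7 lists around PPAR gamma, 1 point per gene. Red points with names were called and black lines give the median of each list, which lies between -0.06 and 0.20 except for the adipocyte markers at 1.27.

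Genes outside the members were ranked by how closely their levels went with *Pparg* or *Adipoq*. After subtraction of each genotype's mean, Pearson's r over the 10 mice, of log2 CPM and among 14308 protein-coding genes that passed the filter on low counts, was highest with *Pparg* for *Specc1* (0.93), *Cyp21a1* (0.93), *Msi2* (0.93), *Dusp8* (0.92) and *Mob1b* (0.91), against a 95th percentile of 0.64. *Cyp21a1*, the steroid 21-hydroxylase gene, was 13.9 to 70.6 FPKM in HSD17B1TG and 0 to 26.0 FPKM in WT. For *Adipoq* the nearest of these genes were *Car3* (0.98), the carbonic anhydrase of fat and muscle, *Slc18a2* (0.94), *Cemip* (0.86), *Bst1* (0.81) and *Efna5* (0.80), against a 95th percentile of 0.44. Between members, r with *Pparg* was 0.81 for *Fabp4*, 0.78 for *Lpl* and 0.67 for *Plin4*, all above the 95th percentile, 0.56 for *Cidea* and *Adipoq*, 0.48 for *Cidec*, 0.37 for *Plin1*, 0.31 for *Apobr* and -0.30 for *Cd36*. The r with *Adipoq* was 0.98 for *Cidec*, 0.91 for *Plin1*, 0.81 for *Fabp4*, 0.58 for *Lpl*, 0.56 for *Pparg* and 0.49 for *Plin4*, all above the 95th percentile, and 0.33 for *Cidea*, 0.15 for *Apobr* and 0.11 for *Cd36*. These values share the 10 libraries, rest in part on TG4 and carry no test.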

How the data were processed

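Uterine RNA of 5 HSD17B1TG and 5 WT mice was sequenced as 150 bp paired-end reads, mapped with HISAT2 2.0.5 (submitters' processing notes) to the mouse genome with Ensembl 94 annotation (GRCm38). The authors deposited raw counts per gene and mouse, and FPKM, which the authors scaled by a DESeq2 size factor per mouse and the gene length of the table. Neither the counting program nor the strand it used is given in the sources used here. A further 10 columns of size-factor-scaled values were not used, nor were the authors' own fold changes, p-values and enrichment tables.

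Members and gene lists were chosen with earlier results of these data known. After filterByExpr and TMM, the counts were tested in edgeR 4.0.16 (quasi-likelihood, R 4.3.3) with Benjamini-Hochberg adjustment. Scores are mean log2 CPM with a prior count of 2, centred, members left out. The labels name no batch. Levels under 3 counts (0.202 CPM in the shallowest library) cannot be told from absence, counting error only. Mitochondrial genes took 1.94% to 7.57% of counts in HSD17B1TG and 2.58% to 3.37% in WT. Of the 10 members, 9 have the same coordinates in GENCODE M21. Genes named are the members, *Lep*, *Retn*, *Cfd*, *Adig*, *Ucp1*, *Ppara*, *Ppard*, *Rxra*, the 3 genes of smallest p per fat or lipid list and the 5 nearest patterns of *Pparg* and *Adipoq*, of which 1 gene is not reported here. *Fasn*, *Cyp2e1*, *Pdgfra*, *Hoxa10*, *Hoxa11*, *Thy1*, *Cln3*, *Il27*, *Hdgfl2*, *Gm44079*, *Cd68*, *Mertk*, *Lgals12*, *Thrsp*, *Adrb3*, *Pck1* and *Elf3* were named after their values were seen. Alternatives were DESeq2 1.42.0, limma 3.58.1 (voom, or log2 of FPKM plus 1 or 0.1), other normalizations, filters and thresholds, marker scores as terms, and each mouse left out. Fits without TG4 and WT2, without TG2, TG4, WT2 and WT4, and slopes on scores other than the adipocyte score were added after seeing the data. The scripts were tested on simulated data.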

Additional observations from a re-analysis of the deposited data

Results flagged for a closer look

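A mouse was picked out where its gap to the next mouse of its genotype, divided by the range of the 5 mice, was above Dixon's 95% critical value. Of 98 groups of 5 mice checked, 19 passed. Chance passes about 1 in 20 only for independent groups of normally distributed values. The groups checked share the same mice and hold fat markers and the nearest patterns of *Adipoq*, so nothing is read from this number. TG4 was the high mouse for *Adipoq* (13.7 FPKM), *Plin1* (2.52), *Cidec* (7.48), *Fabp4* (13.2), *Lep* (1.41), *Retn* (6.24), *Cfd* (72.2), *Car3* (34.4) and *Bst1* (1.70). WT2 was the high WT mouse for *Plin1* (0.577 FPKM), *Cidec* (2.27), *Lep* (0.235), *Retn* (1.43), *Cfd* (12.5) and *Car3* (8.71). WT4 was high for *Apobr* (3.04 FPKM, next 1.74), *Slc2a4* (15.1, next 4.14) and *Otop1*, a proton channel gene of brown fat (1.52, next 0.0827). TG2 was high for *Otop1* (7.45 FPKM, next 2.46). *Pparg*, *Cidea*, *Plin4*, *Lpl* and *Cd36* had no such mouse in either genotype.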

How the results depend on the processing

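The members were chosen with this contrast known, so their values and counts of calls are a description. The *Pparg* log2 fold change was 1.44 to 2.79 over 23 alternatives, 2.27 with the epithelial score as a term, 2.49 without TG4 and WT2 and 2.79 without TG2, TG4, WT2 and WT4. In each of these 3 fits edgeR called 0 genes up, 0 down and 0 members, while DESeq2 called 5 members (*Pparg*, *Cidea*, *Fabp4*, *Cd36* and *Apobr*) in both fits without mice. Over all genes DESeq2 called 548 up and 450 down of 17047 tested without TG4 and WT2. It called 648 up and 541 down of 17194 without all 4 mice. The fits without mice have fewer samples, and in the fit with the epithelial score the cause was not tested. With the adipocyte score as a term 7 genes were called up, 0 down and 1 member in edgeR, and 0 genes in limma-voom. DESeq2 called 921 up and 657 down, limma-voom 189 down, limma on log2(FPKM + 1) 228 down, and an adjusted p under 0.05 alone 568 up. Leaving out 1 mouse gave 38 to 888 genes up, 27 to 666 down, 2 to 3 members called and a *Pparg* log2 fold change of 2.36 to 2.69. The fewest calls up came without TG5 or WT2 (38 each), and the most without WT4 (888). Members with a slope on the adipocyte score numbered 3 with no filter on low counts and 0 to 1 with 1 mouse left out, the 1 being *Cidec*, which then passed the filter. *Cd36* ranged from -2.46 to -0.55 over the alternatives. With 1 mouse left out, the list medians near 0 (regulators, droplet, uptake, synthesis, oxidation, brown fat and macrophage lists) took both signs, between -0.15 and 0.20. No paired analysis was possible because the labels give no replicate number that HSD17B1TG and WT mice share. Of the members *Cidea*, *Plin1*, *Cidec* and *Adipoq* had the fewest reads over all mice, 208, 266, 362 and 461.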

Other observations

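Of 10 brown fat markers, *Ucp1* is not listed in the table, 7 were tested and none was called (median log2 fold change -0.04). *Dio2*, the deiodinase that activates thyroid hormone and is also a uterine gene, was 8.86 to 49.3 FPKM in HSD17B1TG and 21.9 to 161 FPKM in WT (-1.50, SE 0.52, adjusted p = 0.102 in edgeR). *Otop1* was 0.559 to 7.45 FPKM in HSD17B1TG and 0 to 1.52 FPKM in WT (3.22, 1.33, 0.155), and *Ppargc1a* had a log2 fold change of 0.61 (0.28, 0.206). Among further marker lists the median log2 fold change was 1.54 for 4 neutrophil markers tested, 1.06 for the 1 eosinophil marker tested, 0.60 for 9 smooth muscle markers and 1.45 for 8 mesothelial markers, with none called. The eosinophil value was 0.54 without TG2 and 2.003 without WT5, and the smooth muscle median was 0.08 without TG1 and 1.57 without WT4. The neutrophil median moved by more than the list's SD among mice of 1 genotype in 1 alternative and by less in 11. *Dusp8*, a phosphatase gene near *Pparg* in pattern, was called up (1.34, 0.34, adjusted p = 0.0445 in edgeR).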
